A study of Mus musculus with 59 samples.

Results

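The genes of inhibitory transmission were described as 1 set across 5 brain regions of a mouse model of spinocerebellar ataxia type 1 (SCA1), an inherited disease in which an expanded CAG repeat lengthens the polyglutamine tract of ataxin-1. The set was a named list of 27 genes, of the 54232 genes with a count in every library, named by what their proteins do at GABA and glycine synapses, with earlier results of these data known, and all 27 were found in the files by gene identifier. It holds the enzymes that make GABA (Gad1, Gad2) and break it down (Abat), the vesicular transporter (Slc32a1), 12 GABA-A receptor subunits (Gabra2, Gabra3, Gabra4, Gabra5, Gabra6, Gabrb1, Gabrb2, Gabrg1, Gabrg3, Gabrd, Gabre, and Gabrq), both GABA-B receptor subunits (Gabbr1, Gabbr2), 4 glycine receptor subunits (Glra1, Glra2, Glra3, Glrb), both glycine transporters (Slc6a5, Slc6a9), the postsynaptic proteins gephyrin (Gphn) and neuroligin 2 (Nlgn2), and the chloride extruder KCC2 (Slc12a5). PolyA RNA was sequenced from cortex, striatum, hippocampus, brainstem, and cerebellum of 12 mice at 10 weeks of age on a C57BL/6 background. There were 4 wild-type (WT) mice, 4 Atxn1_154Q/2Q mice (154Q mice), which carry 1 expanded knockin allele of Atxn1 beside a normal allele, and 4 Atxn1_154Q[V591A;S602D]/2Q mice (154Q-AXH mice), whose expanded allele also carries the edited residues V591A and S602D in the AXH domain, through which ataxin-1 binds the transcriptional repressor Capicua (CIC). Both mutant genotypes keep the expanded repeat in the germline, so it is present in every cell, and no library came from mice with the edited residues on an allele without the expansion.

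GABA is made from glutamate by a pair of glutamate decarboxylases, packed into vesicles by a transporter that it shares with glycine, and sensed by GABA-A receptors, which are chloride channels built of several subunits, and by GABA-B receptors, which act through G proteins and need both of their subunits. The subunits in a GABA-A receptor set where it sits: receptors with the delta subunit (Gabrd), which pairs with alpha 6 in cerebellar granule cells and with alpha 4 in the forebrain, lie outside the synapse and carry tonic inhibition, as do many receptors with alpha 5 (Gabra5) in hippocampal pyramidal cells. Glycine is the main inhibitory transmitter of the brainstem and spinal cord. In the cerebellum inhibition comes from Purkinje cells, the output neurons of its cortex, and from its interneurons.

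The files give counts of read pairs per gene. Of the 59 libraries, 58 were used: the hippocampal library of mouse 154Q-76 was left out because it held both Xist (190 CPM, read counts scaled to library size) and Y-linked transcripts (129 CPM over 4 genes), and 269 CPM of the brainstem gene Slc6a5, where the other hippocampal libraries had at most 1.35. Depth ranged from 64416717 to 112343574 counted read pairs in the libraries of the hindbrain and hippocampus and from 28058359 to 54719126 in those of the striatum and cortex. Markers of the striatum, hippocampus, brainstem, and cerebellum each had a higher summed level in every library of their own region than in any other, whereas 6 cortical markers did not separate the groups: their lowest sum in a cortical library was 259 CPM and their highest in a library of another region was 516. In the cortex these markers summed to between 463 and 534 CPM in WT mice, 259 and 347 in 154Q mice, and 266 and 325 in 154Q-AXH mice. The cortical library labelled WT-221 had 462 CPM of Xist and 2.07 of 4 Y-linked genes, whereas the other 4 libraries of that mouse had at most 5.64 and at least 156, so cortical calls are also given without it. The libraries of mouse 154Q-75 and mouse 154Q-AXH-217 all held Xist above the Y-linked genes, and besides the cortical library labelled WT-221 no other library used did. In the striatum, mouse WT-220 and mouse 154Q-AXH-217 stood apart, with markers of glutamatergic neurons at 498 and 310 CPM, where the other 10 libraries had at least 1043, and with the highest striatal marker sums (3346 and 1887 CPM). The 6 cortical markers had a median sum of 424 CPM in the WT striatum, against 511 in the WT cortex. Over all genotypes, the median of the glutamatergic marker Slc17a7 was 1097 CPM in the striatum and 1418 in the cortex. The part of cortical tissue in the striatal libraries was not tested. Mouse numbers were under 100 in all 154Q mice, over 200 in all 154Q-AXH mice, and of both kinds in WT mice, so the number series was also fitted as a covariate, which rests on the WT mice of both kinds. In the text below, the values of single libraries follow the order of mouse number, which for the wild type runs from WT-70 and WT-77 to WT-220 and WT-221, for 154Q from 154Q-69 and 154Q-71 to 154Q-75 and 154Q-76 (the last absent from the hippocampus), and for 154Q-AXH from 154Q-AXH-207 and 154Q-AXH-209 to 154Q-AXH-217 (absent from the brainstem) and 154Q-AXH-218.

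The promoter windows of 4 members are shown because these genes were lowered in pairs, Gad1 with Gabra5 in the hippocampus and Gabbr1 with Gabbr2 in the cerebellum, and because the mutant alleles differ in binding to a repressor with a known recognition sequence. RefSeq windows (build GRCm38.p6), which run from 250 bases before to 50 after the annotated start, were found for 24 of the 27 members, and there was no entry for Abat, Gabrd, or Glra1. The Gad1 window lies inside the gene as annotated for the counts, which begins at 70553072. The 50 bases after the start are in capitals, and each is written 5′ to 3′ on the strand of its gene.
Gad1, chr2:70561879-70562178, plus strand: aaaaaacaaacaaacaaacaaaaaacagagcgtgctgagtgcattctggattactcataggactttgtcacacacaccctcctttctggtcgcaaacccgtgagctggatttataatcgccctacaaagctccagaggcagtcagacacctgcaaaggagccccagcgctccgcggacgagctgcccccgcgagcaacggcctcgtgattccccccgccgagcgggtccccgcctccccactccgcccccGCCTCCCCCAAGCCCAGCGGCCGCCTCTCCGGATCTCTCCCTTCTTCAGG
Gabra5, chr7:57510010-57510309, minus strand: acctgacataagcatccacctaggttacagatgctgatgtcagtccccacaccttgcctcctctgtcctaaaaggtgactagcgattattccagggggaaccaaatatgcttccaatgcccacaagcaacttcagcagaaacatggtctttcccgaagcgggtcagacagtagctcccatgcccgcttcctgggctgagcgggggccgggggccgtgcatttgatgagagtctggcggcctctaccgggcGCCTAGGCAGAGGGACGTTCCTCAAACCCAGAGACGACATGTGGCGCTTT
Gabbr1, chr17:37045716-37046015, plus strand: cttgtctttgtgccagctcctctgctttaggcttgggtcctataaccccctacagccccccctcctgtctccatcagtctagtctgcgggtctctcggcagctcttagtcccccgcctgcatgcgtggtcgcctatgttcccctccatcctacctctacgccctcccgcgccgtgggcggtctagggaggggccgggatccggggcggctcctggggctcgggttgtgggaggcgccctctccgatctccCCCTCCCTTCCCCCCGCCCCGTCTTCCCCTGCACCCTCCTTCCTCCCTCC
Gabbr2, chr4:46991665-46991964, minus strand: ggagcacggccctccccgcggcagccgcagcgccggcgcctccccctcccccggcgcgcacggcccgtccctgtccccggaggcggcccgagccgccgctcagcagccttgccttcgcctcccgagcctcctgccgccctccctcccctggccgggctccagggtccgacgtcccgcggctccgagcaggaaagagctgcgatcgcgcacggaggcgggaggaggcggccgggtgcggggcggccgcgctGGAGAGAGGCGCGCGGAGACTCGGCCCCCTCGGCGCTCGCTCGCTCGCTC
The 4 windows differed in base composition. That of Gabbr2 was 80.3% G and C with 46 CG pairs, above 99.1% of all 32851 windows in its G and C content, and those of Gabbr1, Gad1, and Gabra5 were 67.3%, 60.0%, and 56.7%, against a median of 52.7% over all windows. Octamers bound by CIC, TGAATGAA and TCAATGAA, were searched on both strands, and no other form of its site was. They were found in 1.3% and 0.749% of all windows and in 0 of the 32 windows of the 24 members. At these shares few matches are expected in 32 windows, so the 0 does not set the members apart from other genes. These are matches of letters in a short window and say nothing about binding elsewhere.

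The levels in WT mice show first which members each region uses. Levels are given as CPM per kilobase of exon, which allows genes to be compared, as the mean ± SD over 4 libraries. Among the genes of the presynaptic side, Gad1 was highest in the cerebellum (87.5 ± 4.99) and striatum (65.9 ± 10.1) and lowest in the brainstem (35.6 ± 1.97), where Gad2, the second decarboxylase, was above it (43.1 ± 2.2). Slc32a1, which loads GABA and glycine into vesicles, ranged from 14.7 ± 0.854 in the hippocampus to 59.9 ± 21.9 in the striatum, a region made mostly of GABAergic neurons. Of the exon length of Slc32a1, 24.9% is shared with another gene, and the counts ignore strand. Abat, the GABA transaminase, was highest in the brainstem (88.5 ± 5.24).

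The GABA-A subunits had the sharpest regional patterns. Gabra6, the alpha 6 subunit of cerebellar granule cells, had 387 ± 43.1 CPM per kilobase in the cerebellum and at most 7.08 in the other regions. Gabrd was also highest in the cerebellum (64.5 ± 3.78), followed by the striatum (42.2 ± 7.24), cortex (26.7 ± 2.66), hippocampus (8.84 ± 1.44), and brainstem (1.51 ± 0.601), and none of these ranges overlapped. Gabra5 was the leading alpha subunit of the set in the hippocampus (56.9 ± 5.31) and close to absent from the cerebellum (0.32 ± 0.0957). Gabra4, the forebrain partner of the delta subunit, had similar levels in the striatum (23.6 ± 2.84) and hippocampus (23.0 ± 0.824), whose ranges overlapped. Gabra2 and Gabrb1 were highest in the hippocampus (15.9 ± 1.45 and 16.5 ± 3.24), Gabrb2 in the cerebellum (44.9 ± 7.67), and Gabra3 and Gabrg1 in the brainstem (38.1 ± 1.74 and 7.76 ± 0.36). Gabrg3 stayed at or under 2.43 in every region. Gabre and Gabrq, subunits known from brainstem and hypothalamic neurons, were at 0.938 and 3.75 in the brainstem and at most 0.0809 and 0.155 elsewhere.

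Glycine genes set the brainstem apart. Slc6a5, the neuronal glycine transporter GlyT2 that marks glycinergic neurons, had 80.2 ± 3.48 CPM per kilobase in the brainstem and 5.91 in the cerebellum, and Glra1, the adult alpha subunit of the glycine receptor, had 44.8 ± 6.95 against at most 0.348 in any other region. Glrb, its beta subunit, was abundant everywhere, from 46.4 ± 1.57 in the hippocampus to 101 ± 3.0 in the brainstem. Slc6a9, the mostly glial transporter GlyT1, Glra2, and Glra3 were also highest in the brainstem (20.9 ± 0.118, 5.54 ± 0.137, and 3.24 ± 0.301), although 38.6% of the exon length of Slc6a9 is shared with other genes and the counts ignore strand. The postsynaptic and receptor genes that most inhibitory synapses need were even across regions: Gphn lay between 20.5 and 24.9, Nlgn2 between 31.9 and 42.2, Gabbr1 between 70.1 and 117, and Slc12a5 between 60.4 and 103. Gabbr2 was lowest in the brainstem (23.3 ± 0.88) and highest in the cortex (57.9 ± 4.44).

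**Figure D1:**
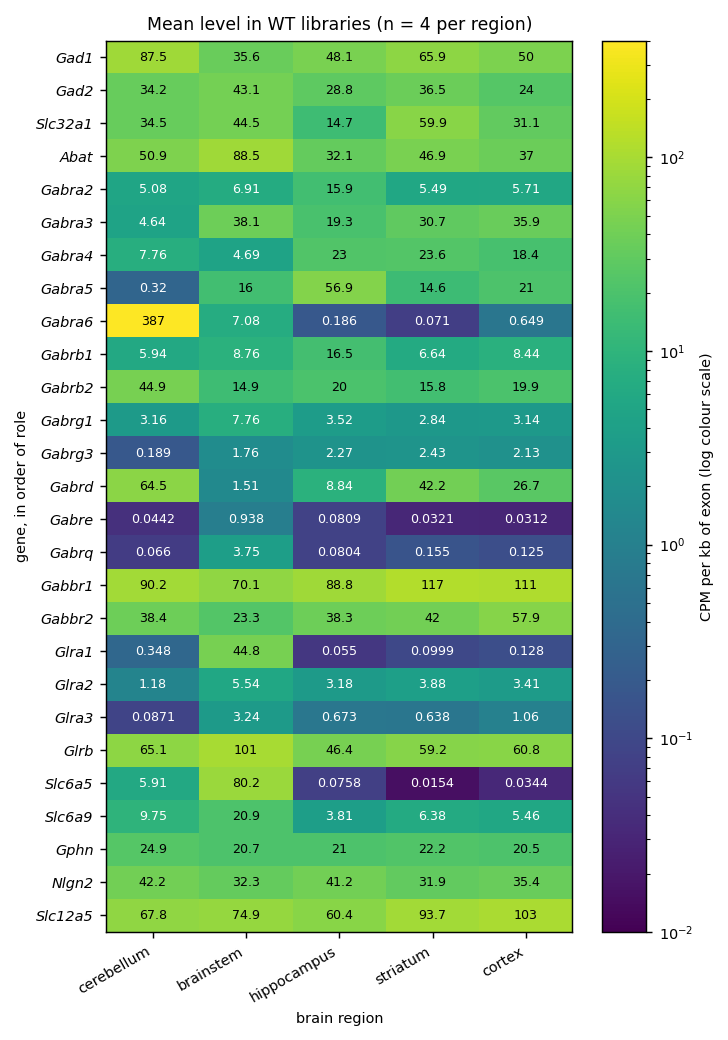
Mean level of each of the 27 genes (rows) in the 5 brain regions (columns) of 4 WT mice, in CPM per kilobase of exon, with the value printed in each cell and a log colour scale. Gabra6 reaches 387 in the cerebellum, Slc6a5 80.2 in the brainstem, and Gabra5 56.9 in the hippocampus, whereas Gphn stays between 20.5 and 24.9.

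Each region was then compared with the mean of the fitted log levels of the other 4 in the 20 WT libraries, so that a region in which a gene is nearly absent weighs as much as one in which it is abundant (edgeR's quasi-likelihood test, Benjamini-Hochberg adjusted p under 0.05 over 22200 genes and an absolute log2 fold change of at least 1). The brainstem called 13 members (19.2% of all genes were called), 11 of them higher there (10.7% of all genes), led by Slc6a5 (log2 fold change 9.32) and Glra1 (8.50). Lower in the brainstem were Gabrd (-4.22) and Gabra4 (-1.83). The cerebellum called 11 (28.0% of all genes): Gabra6 (9.61), Slc6a5 (4.62), Gabrd (2.54), and Gabrb2 (1.36) were higher on this scale, although Slc6a5 was far below the brainstem, and Gabra5 (-6.17), Glra3 (-3.67), Gabrg3 (-3.50), Gabra3 (-2.69), Gabrq (-2.16), Glra2 (-1.72), and Gabre (-1.14) were lower. The hippocampus also called 11 (14.1% of all genes), with Gabra5 (3.18), Gabra2 (1.46), Gabrb1 (1.17), and Gabra4 (1.03) higher and 7 lower, among them Slc32a1 (-1.48) and Gabrd (-1.05). The striatum called 8 (15.8% of all genes), with Gabrd (1.77), Gabrg3 (1.11), Gabra4 (1.09), and Slc32a1 (1.05) higher, and the cortex called 4 (14.3% of all genes), of which only Gabra5 (1.38) was higher on this scale, at a level below that of the hippocampus. In the cortex, Gabra6 was 0.669, 5.64, 0.133, and 0.0242 CPM in the WT libraries. That of mouse WT-77, with the highest value, also had the highest sum of 6 cerebellar markers among the cortical libraries (96.8 CPM), whereas that of mouse WT-70, the next highest, had the lowest sum of the 4 (44.9 CPM), and the part of cerebellar tissue in these values was not tested.

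The main question of the study, what the expanded allele changes and what remains when its binding to CIC is lost, was put to the set by comparing each mutant genotype with WT within a region. Of 390 tests of a member in a genotype comparison, 21 passed (adjusted p under 0.05, edgeR's quasi-likelihood test adjusted over all genes tested in the region). Of these, 19 were lower in the mutant and 2 higher, they fell on 10 members, and 17 members were called nowhere. These pooled counts were not set against all genes, whose share called is given by region below. In 154Q mice the cortex called 6 of 26 members tested (11.1% of all genes were called), all lowered (6.71% of all genes): Gad1, Gabrd, Glrb, Gabbr2, Slc6a9, and Glra1. The cerebellum called 4 of 27 (5.22%), with Gabbr1, Gabbr2, and Nlgn2 lowered and Glra2 raised. The hippocampus called 3 of 27 (6.06%), Gad1, Gabrd, and Gabra5, all lowered (3.61% of all genes), and the striatum 1 of 23 (5.69%), Gabrd. The brainstem, where the glycine genes are highest, called 0 of 27 (0.538%); 3 members had an unadjusted p under 0.05, and DESeq2 called 2, Slc6a9 and Glra2.

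In 154Q-AXH mice, the hippocampus called Gad1, Gabrd, and Gabra5, lowered, and Glra2, raised (3.61% of all genes), the cortex called Gad1 and Gabrd (7.15%), and the striatum called Gabrd (1.35%). The cerebellum called 0 of 27 members (2.21%), with 2 at an unadjusted p under 0.05 and 0 by DESeq2, and the brainstem called 0 (0.0138%), with 2 at an unadjusted p under 0.05 and 0 by DESeq2. The 2 genotypes share the WT libraries, so their agreement with each other is not independent. The median log2 fold change over the members tested lay between -0.112 and -0.00105 in these 10 comparisons, against -0.0102 to 0.00927 over all genes tested.

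**Figure D2:**
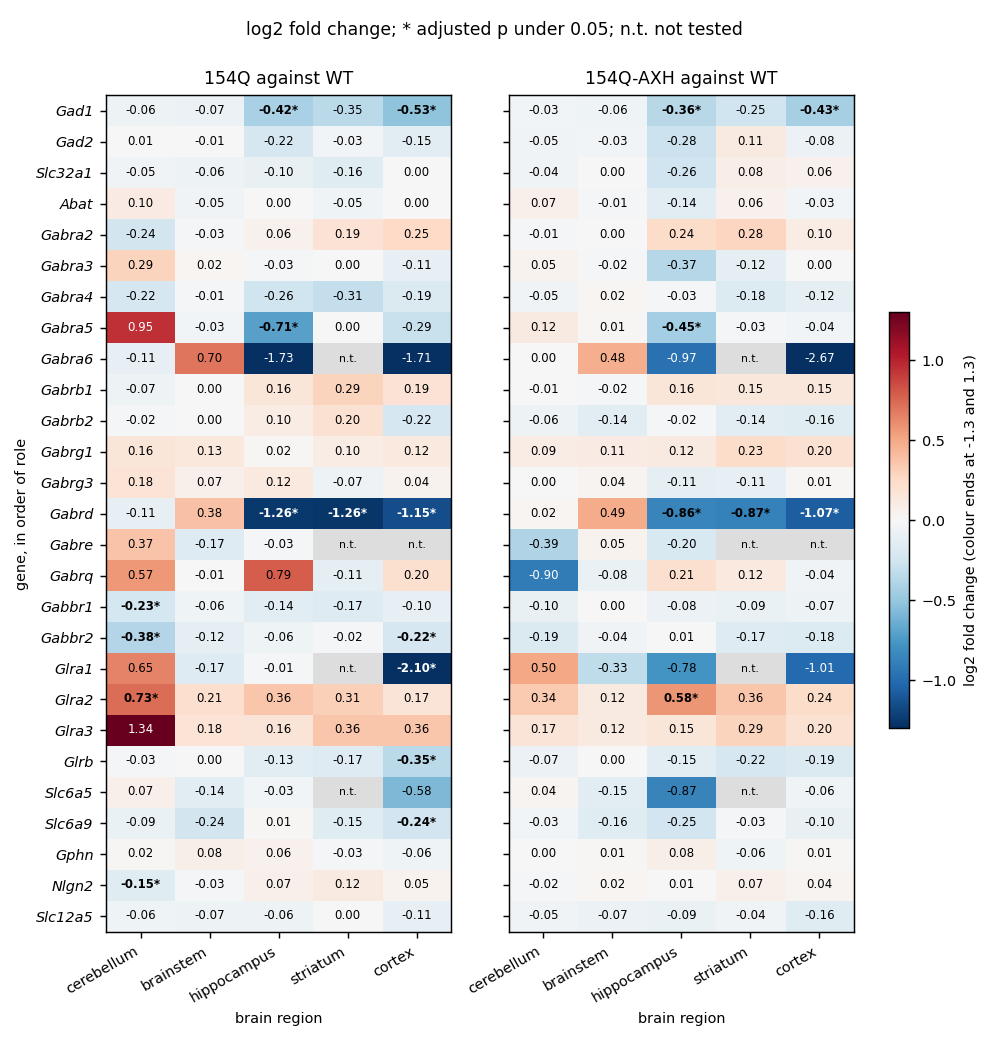
log2 fold change of each of the 27 genes (rows) in the 5 regions (columns), with 154Q against WT on the left and 154Q-AXH against WT on the right; an asterisk marks an adjusted p under 0.05 and n.t. a gene with too few counts to test. Gabrd is marked in hippocampus, striatum, and cortex in both genotypes, Gad1 in hippocampus and cortex in both, and nothing is marked in the brainstem. Large uncalled values, as for Gabra6 in the cortex, belong to genes with few counts there.

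Gad1, which encodes the decarboxylase GAD67 that makes most of the brain's GABA, lies on chromosome 2 (GRCm38, from 70553072 to 70602014, plus strand). Gad1 measured 377, 363, 406, and 375 CPM in the cortex of WT mice, 259.9, 253, 256, and 285 in that of 154Q mice, and 277, 278, 292, and 283 in that of 154Q-AXH mice. Gad1 was 1.44-fold lower in 154Q than in WT mice (log2 fold change -0.53 ± 0.0487 SE, adjusted p = 1.13e-05, edgeR). Gad1 was 1.34-fold lower in 154Q-AXH than in WT mice (log2 fold change -0.43 ± 0.0486 SE, adjusted p = 8.81e-05, edgeR). All 8 mutant libraries were below the lowest WT library. The hippocampus showed the same order with smaller differences. The hippocampus held 369.6, 372, 378, and 379 CPM of Gad1 in WT mice, 277, 264, and 297 in 154Q mice, and 298, 271, 312, and 289 in 154Q-AXH mice. Gad1 was 1.34-fold lower in 154Q than in WT mice (log2 fold change -0.42 ± 0.0579 SE, adjusted p = 0.00161, edgeR). Gad1 was 1.28-fold lower in 154Q-AXH than in WT mice (log2 fold change -0.36 ± 0.0532 SE, adjusted p = 0.00406, edgeR). Here too no mutant library reached the WT range. Without the cortical library labelled WT-221 the cortical differences were -0.53 (adjusted p = 7.03e-05) and -0.43 (adjusted p = 0.000417). In the striatum the libraries overlapped: log2 fold change -0.35, adjusted p = 0.258 for 154Q and log2 fold change -0.25, adjusted p = 0.634 for 154Q-AXH, and mouse WT-220 and mouse 154Q-AXH-217, the libraries that stood apart, were the highest of their genotypes (602 and 601 CPM). In the cerebellum and brainstem, Gad1 differed from WT by between -0.07 and -0.03 on the log2 scale in both genotypes.

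The other genes of the GABAergic terminal were called in neither the cortex nor the hippocampus. In the cortex, Gad2 stood at 140.5, 134, 150.0, and 138 CPM in WT libraries, at 146, 119, 119, and 123 in 154Q libraries, and at 133, 135, 129, and 135 in 154Q-AXH libraries. Its highest 154Q library lay within the WT range, and the differences were log2 fold change -0.15, adjusted p = 0.14 for 154Q and log2 fold change -0.08, adjusted p = 0.512 for 154Q-AXH. Slc32a1 measured 86.7, 84.7, 87.6, and 87.8 CPM in the cortex of WT mice, 94.4, 87.1, 81.6, and 84.1 in that of 154Q mice, and 89.8, 85.5, 96.1, and 89.9 in that of 154Q-AXH mice. The genotypes overlapped, with log2 fold change 0.00, adjusted p = 0.995 for 154Q (95% confidence interval -0.11 to 0.11) and log2 fold change 0.06, adjusted p = 0.574 for 154Q-AXH. As a ratio of CPM, Gad1 to Gad2 was 2.7 ± 0.0136 (SD, n = 4) in the WT cortex, 2.09 ± 0.229 in 154Q mice, and 2.13 ± 0.0898 in 154Q-AXH mice; the WT libraries lay between 2.68 and 2.71 and the mutant libraries between 1.78 and 2.33. Gad1 to Slc32a1 was 4.38 ± 0.169 in the WT cortex, 3.05 ± 0.281 in 154Q mice, and 3.13 ± 0.0925 in 154Q-AXH mice, again with no overlap between WT and mutant libraries. In the hippocampus, Gad2 differed by log2 fold change -0.22, adjusted p = 0.236 in 154Q mice and log2 fold change -0.28, adjusted p = 0.123 in 154Q-AXH mice, neither called, although Gad2 was called in 154Q mice without 1 library in the hippocampus (154Q-AXH-218) and without 1 in the cortex (154Q-69). The ratio of Gad1 to Gad2 in the hippocampus was 2.18 ± 0.0664 in WT, 1.88 ± 0.0498 in 154Q, and 2.09 ± 0.344 in 154Q-AXH mice, of which the last overlapped WT. Slc32a1 and Abat were called in no region.

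Markers of forebrain interneurons (Pvalb, Sst, Vip, Npy, Lhx6, and Dlx1) were also lower in the cortex and hippocampus. Their summed level in the cortex was between 429 and 460 CPM in WT mice, 281 and 352 in 154Q mice, and 325 and 352 in 154Q-AXH mice, with 5 and 4 of the 6 called as lowered. In the hippocampus it was between 266 and 296, 165 and 197, and 102 and 219, with 2 of 6 lowered in each genotype. In the striatum, where Gad1 was not called, their sum was between 402 and 502, 279 and 298, and 252 and 392.4, without overlap between WT and mutant libraries and with 2 and 1 of 6 lowered. In 154Q and 154Q-AXH mice, the shares of all genes called were 11.1% and 7.15% in the cortex. They were 6.06% and 3.61% in the hippocampus and 5.69% and 1.35% in the striatum. In these tissue samples fewer interneurons and less RNA per interneuron cannot be told apart, and the part of either in the Gad1 result was not tested.

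**Figure D3:**
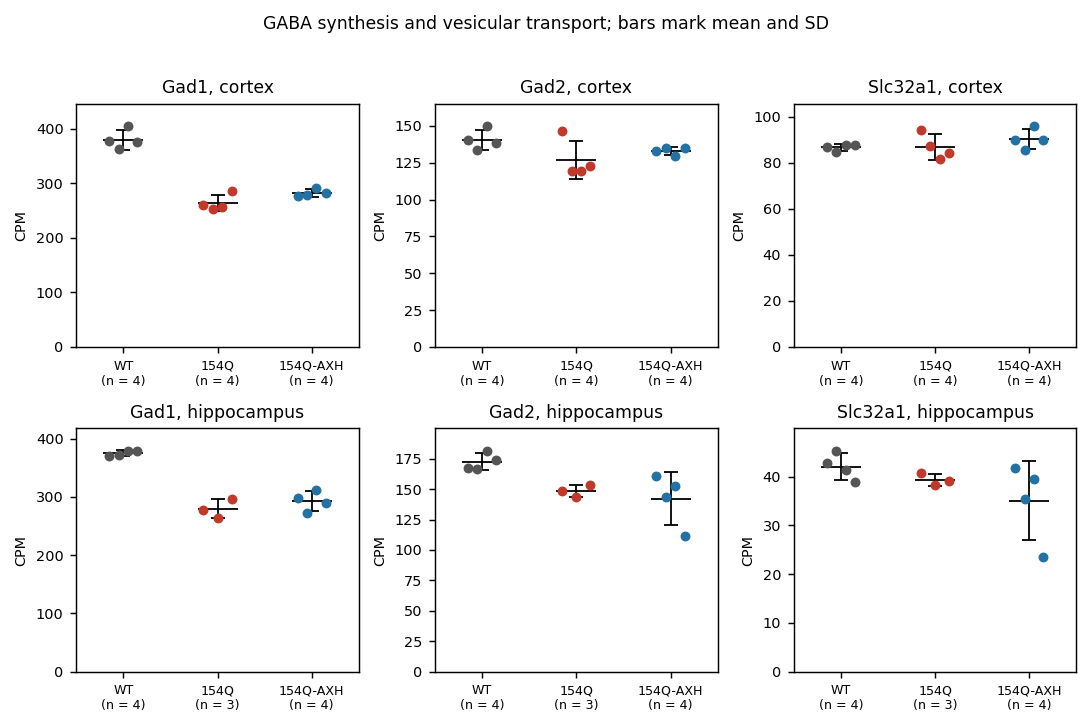
CPM of Gad1, Gad2, and Slc32a1 in the cortex (top) and hippocampus (bottom) of WT, 154Q, and 154Q-AXH mice; each point is a library, and bars give the mean and SD. For Gad1 every mutant library lies below every WT library in both regions (cortex, at most 292 against at least 363), whereas Slc32a1 in the cortex overlaps between genotypes.

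Gabrd, the delta subunit of extrasynaptic GABA-A receptors (chromosome 4, from 155384980 to 155398112, minus strand), had the largest decrease of any called member other than Glra1, which rested on a few reads, and was called in all 3 forebrain regions in both genotypes; in 154Q-AXH mice the hippocampal call was lost with a covariate for the number series (-0.75, adjusted p = 0.0512) and the striatal one when only 2 genotypes were fitted (-0.87, adjusted p = 0.0603). The cortex held 86.6, 71.7, 69.7, and 78.1 CPM of Gabrd in WT mice, 29.6, 33.6, 33.6, and 41.0 in 154Q mice, and 30.3, 33.3, 44.9, and 37.4 in 154Q-AXH mice. Gabrd was 2.22-fold lower in 154Q than in WT mice (log2 fold change -1.15 ± 0.114 SE, adjusted p = 2.28e-05, edgeR). Gabrd was 2.09-fold lower in 154Q-AXH than in WT mice (log2 fold change -1.07 ± 0.114 SE, adjusted p = 5.72e-05, edgeR). Every mutant library was well below the lowest WT library. In the striatum, Gabrd stood at 111, 125, 145, and 100.4 CPM in WT libraries, at 54.4, 48.4, 45.1, and 53.0 in 154Q libraries, and at 56.6, 63.6, 85.7, and 57.3 in 154Q-AXH libraries. Gabrd was 2.4-fold lower in 154Q than in WT mice (log2 fold change -1.26 ± 0.141 SE, adjusted p = 0.000445, edgeR). Gabrd was 1.83-fold lower in 154Q-AXH than in WT mice (log2 fold change -0.87 ± 0.14 SE, adjusted p = 0.0099, edgeR). The groups did not overlap, although the library of mouse 154Q-AXH-217 came closest to WT. With the 2 striatal libraries that stood apart left out, the log2 fold changes were -1.15 (adjusted p = 1.01e-05) and -0.92 (adjusted p = 0.000215). Gabrd measured 32.2, 23.3, 23.0, and 25.2 CPM in the hippocampus of WT mice, 11.4, 10.2, and 10.9 in that of 154Q mice, and 11.3, 13.4, 13.8, and 19.0 in that of 154Q-AXH mice. Gabrd was 2.39-fold lower in 154Q than in WT mice (log2 fold change -1.26 ± 0.163 SE, adjusted p = 0.00107, edgeR). Gabrd was 1.81-fold lower in 154Q-AXH than in WT mice (log2 fold change -0.86 ± 0.146 SE, adjusted p = 0.00827, edgeR). Here as well the ranges were separate. Without the cortical library labelled WT-221 the cortical values were -1.14 (adjusted p = 0.000145) and -1.06 (adjusted p = 0.000311).

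The cerebellum, where Gabrd is highest, gave no such difference. The cerebellum held 189, 187, 204, and 191 CPM of Gabrd in WT mice, 181, 175, 169.9, and 188 in 154Q mice, and 190.0, 203, 179, and 211 in 154Q-AXH mice. The 154Q and WT ranges met, and the differences were log2 fold change -0.11, adjusted p = 0.281 for 154Q (95% confidence interval -0.22 to 0.00) and log2 fold change 0.02, adjusted p = 0.891 for 154Q-AXH (-0.09 to 0.13), intervals that leave out a decrease of the size seen in the forebrain. Its cerebellar partner Gabra6 was also not called there, at log2 fold change -0.11, adjusted p = 0.358 and log2 fold change 0.00, adjusted p = 0.996. The forebrain partner Gabra4 was lower by less than Gabrd and was called nowhere: in 154Q mice it had log2 fold change -0.26, adjusted p = 0.159 in the hippocampus, log2 fold change -0.31, adjusted p = 0.103 in the striatum, and log2 fold change -0.19, adjusted p = 0.11 in the cortex. In the brainstem, Gabrd was between 1.65 and 15.6 CPM. The library with the highest value, mouse 154Q-AXH-209, also had the most Gabra6 (65.3 CPM) and the highest sum of cerebellar markers (382 CPM, where the other brainstem libraries had at most 295), and the part of cerebellar tissue in these values was not tested.

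Summed markers of the tissue were lower beside Gabrd in 154Q mice, but not throughout in 154Q-AXH mice. In the striatum, 5 markers of striatal projection neurons (Drd1, Drd2, Adora2a, Rgs9, and Ppp1r1b) summed to between 996 and 3346 CPM in WT mice, 347 and 653 in 154Q mice, and 314 and 1887 in 154Q-AXH mice, with 0 of 5 called in either genotype by edgeR, where 5 and 0 had an unadjusted p under 0.05 and DESeq2 called 1 and 0. With the 2 striatal libraries that stood apart left out, edgeR called 3 and 0. All 5 then had an unadjusted p under 0.05 in each genotype. These counts were not set against all genes under that setting. The cortical markers, given above, had 3 and 5 of 6 lowered. In the hippocampus its own markers summed to between 268 and 402 CPM in WT mice, 191 and 239 in 154Q mice, and 255 and 438 in 154Q-AXH mice, which spans the WT range, with 2 and 0 of 6 called by edgeR, where 2 and 3 had an unadjusted p under 0.05 and DESeq2 called 2 and 1. By edgeR, 5.69% and 1.35% of all genes were called in the striatum of 154Q and 154Q-AXH mice. These shares were 11.1% and 7.15% in the cortex and 6.06% and 3.61% in the hippocampus. The part of the markers in the Gabrd result was not tested.

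**Figure D4:**
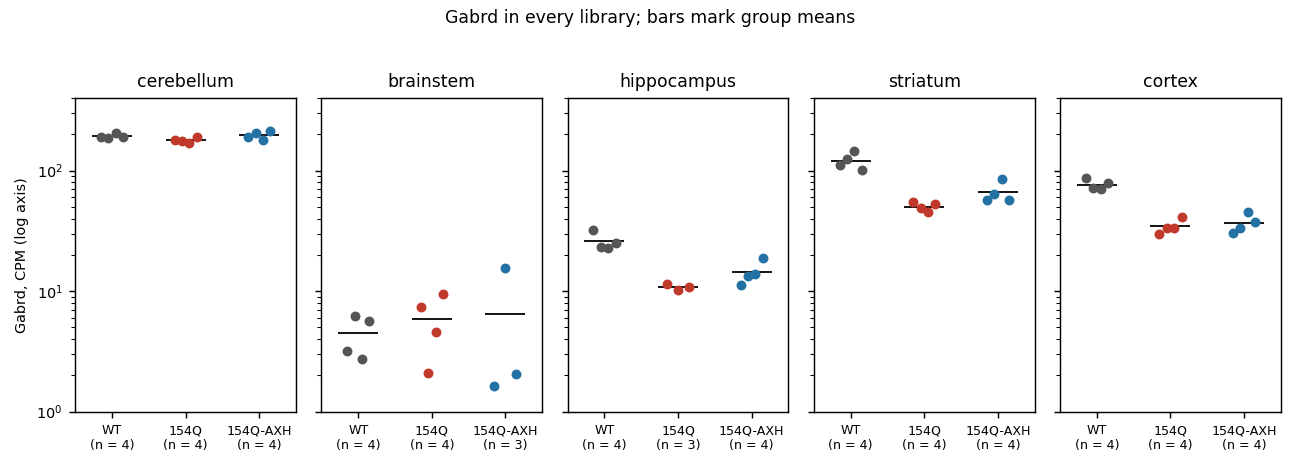
CPM of Gabrd (log axis) in every library of the 5 regions, by genotype; each point is a library and the bar is the group mean. In the hippocampus, striatum, and cortex all mutant libraries lie below all WT libraries (cortex, at most 44.9 against at least 69.7), in the cerebellum the 12 libraries lie between 170 and 211, and in the brainstem the values are low and scattered.

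Gabra5, the alpha 5 subunit, was lowered in the region where it is highest. In the hippocampus, Gabra5 stood at 153, 170.4, 179, and 188 CPM in WT libraries, at 95.3, 106, and 116 in 154Q libraries, and at 126, 135, 119.6, and 125 in 154Q-AXH libraries. Gabra5 was 1.63-fold lower in 154Q than in WT mice (log2 fold change -0.71 ± 0.0818 SE, adjusted p = 0.00052, edgeR). Gabra5 was 1.36-fold lower in 154Q-AXH than in WT mice (log2 fold change -0.45 ± 0.0746 SE, adjusted p = 0.00736, edgeR). All 7 mutant libraries were below the lowest WT library, and the 154Q libraries were all below the 154Q-AXH libraries; that difference was log2 fold change 0.26, adjusted p = 0.663 between the mutant genotypes, which did not pass. In the cortex, Gabra5 differed by log2 fold change -0.29, adjusted p = 0.0718 in 154Q mice and log2 fold change -0.04, adjusted p = 0.888 in 154Q-AXH mice. DESeq2 called it in the cortex of 154Q mice. In the cerebellum, where its level was near 1 CPM, the libraries of mouse 154Q-71 and mouse 154Q-75 had 3.08 and 2.47 CPM and the other 10 libraries at most 1.36, and the difference was not called.

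In the cerebellum both genes of the GABA-B receptor were lowered. Gabbr1 encodes the subunit that binds GABA, and Gabbr2 the one that couples to the G protein. Gabbr1 measured 759, 669, 725, and 757 CPM in the cerebellum of WT mice, 628, 625, 614, and 615 in that of 154Q mice, and 676, 682, 671, and 689 in that of 154Q-AXH mice. Gabbr1 was 1.17-fold lower in 154Q than in WT mice (log2 fold change -0.23 ± 0.0388 SE, adjusted p = 0.00262, edgeR). Every 154Q library was below every WT library, and the 154Q-AXH libraries lay above all 154Q libraries and in the lower part of the WT range (log2 fold change -0.10, adjusted p = 0.232). The cerebellum held 257, 239, 273, and 296 CPM of Gabbr2 in WT mice, 186, 202, 224, and 206 in 154Q mice, and 234, 228, 227, and 245 in 154Q-AXH mice. Gabbr2 was 1.3-fold lower in 154Q than in WT mice (log2 fold change -0.38 ± 0.064 SE, adjusted p = 0.00249, edgeR). Again every 154Q library was below every WT and every 154Q-AXH library, and the 154Q-AXH libraries overlapped WT (log2 fold change -0.19, adjusted p = 0.155). Between the mutant genotypes, 154Q-AXH was higher by log2 fold change 0.13, adjusted p = 0.397 for Gabbr1 and by log2 fold change 0.19, adjusted p = 0.449 for Gabbr2, which did not pass. Gabbr2 was also called in the cortex of 154Q mice, where it stood at 413, 368, 354, and 408 CPM in WT and 349.6, 309, 334, and 331 in 154Q libraries (log2 fold change -0.22, adjusted p = 0.0356). That call was lost without the library labelled WT-221 (-0.19, adjusted p = 0.112) and without any 1 of 5 other libraries. Markers of the cerebellum (Pcp2, Car8, Cbln1, Cbln3, Neurod1, and En2) summed to between 5369 and 5600 CPM in WT, 4449 and 4695 in 154Q, and 4979 and 5244 in 154Q-AXH mice, the same order as Gabbr1 and Gabbr2, and their part was not tested. Of these 6 markers, 3 and 1 were called as lowered in 154Q and 154Q-AXH mice (5.22% and 2.21% of all genes were called).

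Nlgn2, the adhesion protein of inhibitory synapses, was lowered slightly in the cerebellum. In the cerebellum, Nlgn2 stood at 256, 236, 257, and 264 CPM in WT libraries, at 232, 229, 225, and 226 in 154Q libraries, and at 241, 249.5, 243, and 264 in 154Q-AXH libraries. Nlgn2 was 1.11-fold lower in 154Q than in WT mice (log2 fold change -0.15 ± 0.0402 SE, adjusted p = 0.0409, edgeR). The 154Q libraries were below all WT libraries by a small margin, and the call was lost without any 1 of 10 of the 12 libraries. Glra2, the alpha 2 subunit typical of immature glycine receptors, was raised. Glra2 measured 3.63, 4.09, 3.66, and 4.15 CPM in the cerebellum of WT mice, 4.8, 8.04, 7.66, and 5.18 in that of 154Q mice, and 3.95, 5.06, 5.51, and 5.18 in that of 154Q-AXH mice. Glra2 was 1.66-fold higher in 154Q than in WT mice (log2 fold change 0.73 ± 0.162 SE, adjusted p = 0.0165, edgeR). The 154Q and WT libraries did not overlap, but mouse 154Q-71 and mouse 154Q-75 stood above the rest, and without either the call was lost (0.60, adjusted p = 0.0524 and 0.64, adjusted p = 0.0533). The same 2 libraries were high in Glra3 (3.82 and 2.55 CPM, against at most 1.07 in the other 10) and Gabra3 (24.2 and 26.1 against at most 21.3), which were not called. The call was also lost without mouse WT-220 (0.70, adjusted p = 0.051) and with a covariate for the number series (0.73, adjusted p = 0.0621). Glra2 and Gabra3 lie on the X chromosome, and of these 2 libraries that of mouse 154Q-75 held Xist and that of mouse 154Q-71 did not. The call held with the Xist level as a covariate. No WT cerebellar library held Xist above the Y-linked genes, and the part of sex in these values was not tested. In the hippocampus it was 154Q-AXH mice in which Glra2 passed. The hippocampus held 11.5, 9.72, 10.4, and 9.26 CPM of Glra2 in WT mice, 13.0, 11.2, and 15.1 in 154Q mice, and 13.0, 14.1, 16.2, and 17.8 in 154Q-AXH mice. Glra2 was 1.49-fold higher in 154Q-AXH than in WT mice (log2 fold change 0.58 ± 0.116 SE, adjusted p = 0.0194, edgeR). The 154Q-AXH libraries were all above WT, and so was the 154Q value on average (log2 fold change 0.36, adjusted p = 0.12), which did not pass. The hippocampal call was lost without mouse WT-221 (0.53, adjusted p = 0.0547) or mouse 154Q-AXH-217 (0.55, adjusted p = 0.063), and with a covariate for the number series (0.63, adjusted p = 0.0574).

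**Figure D5:**
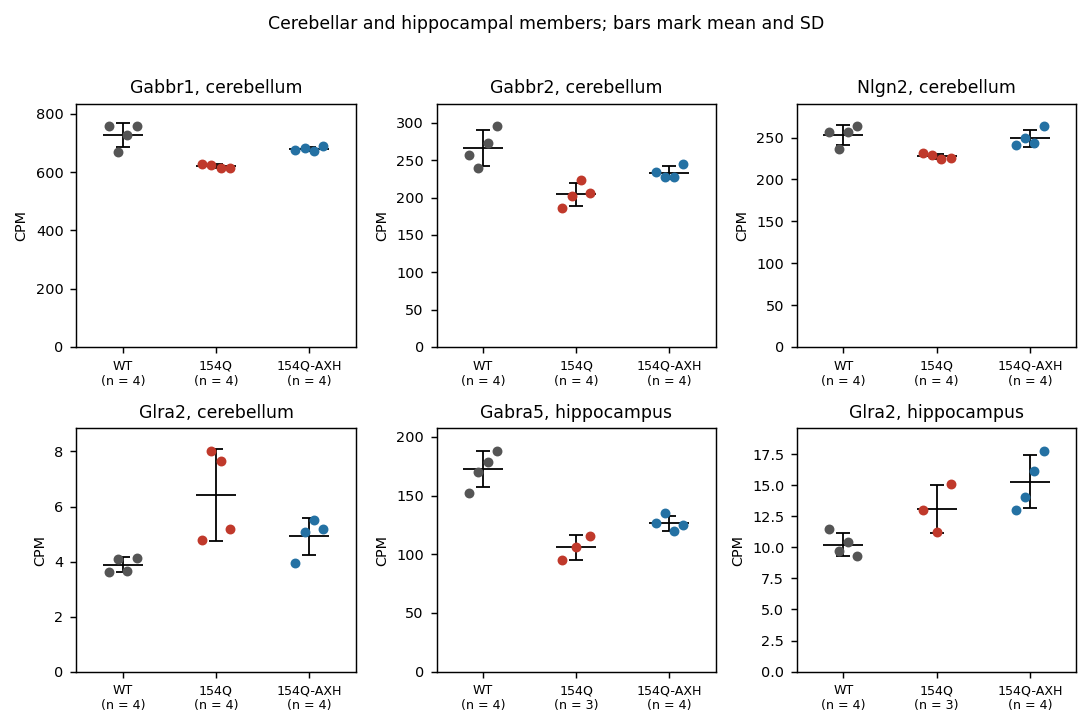
CPM of Gabbr1, Gabbr2, Nlgn2, and Glra2 in the cerebellum and of Gabra5 and Glra2 in the hippocampus; each point is a library, and bars give the mean and SD. The 154Q libraries of Gabbr1 (614 to 628) lie below the WT libraries (669 to 759), and hippocampal Gabra5 is lower in both mutant genotypes.

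The remaining calls were of glycine genes in the cortex of 154Q mice. Glrb, the subunit that anchors glycine receptors to gephyrin, stood at 289, 267, 283, and 288 CPM in WT, 201, 196, 243, and 247 in 154Q, and 224, 239.7, 275, and 248 in 154Q-AXH mice. Glrb was 1.27-fold lower in 154Q than in WT mice (log2 fold change -0.35 ± 0.0779 SE, adjusted p = 0.00961, edgeR). Without the library labelled WT-221 the value was -0.34 (adjusted p = 0.0306), and with a covariate for the number series the call was lost (-0.33, adjusted p = 0.0783). The 154Q libraries were all below WT, and the 154Q-AXH difference (log2 fold change -0.19, adjusted p = 0.163) did not pass. Slc6a9 stood at 25.9, 27.6, 28.6, and 29.9 CPM in WT and 22.3, 22.4, 23.2, and 26.6 in 154Q mice. Slc6a9 was 1.18-fold lower in 154Q than in WT mice (log2 fold change -0.24 ± 0.0657 SE, adjusted p = 0.0264, edgeR). Its ranges overlapped, and the call was lost without the library labelled WT-221 (-0.21, adjusted p = 0.0882) and without any 1 of 4 other libraries. Glra1 rested on few reads, from 6 to 17 counts in the WT libraries and from 0 to 7 in the 154Q libraries (log2 fold change -2.10, adjusted p = 0.0406), with overlapping ranges, and the call was lost without any 1 of 7 libraries, that labelled WT-221 included (-1.91, adjusted p = 0.114). Without the library labelled WT-221, the cortex of 154Q mice called 4 members in place of 6: Gad1, Gabrd, and Glrb were kept and Gabra5 was gained, while 154Q-AXH mice kept Gad1 and Gabrd.

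The 17 members called in no comparison between genotypes were Gad2, Slc32a1, Abat, Gabra2, Gabra3, Gabra4, Gabra6, Gabrb1, Gabrb2, Gabrg1, Gabrg3, Gabre, Gabrq, Glra3, Slc6a5, Gphn, and Slc12a5. Gphn, the scaffold of inhibitory synapses, had the narrowest range, from -0.07 to 0.08 on the log2 scale over its 15 comparisons, followed by Slc12a5, from -0.16 to 0.01. Slc6a5 was not called in the brainstem, where it is highest (log2 fold change -0.14, adjusted p = 0.544 in 154Q mice), and neither was Glra1 (log2 fold change -0.17, adjusted p = 0.817). The lowest adjusted p values among the uncalled members were those of Gabrb1 and Gabra2 in the cortex of 154Q mice, both higher than WT (log2 fold change 0.19, adjusted p = 0.0515 and log2 fold change 0.25, adjusted p = 0.0555), and of Gabra3 in their cerebellum (log2 fold change 0.29, adjusted p = 0.0541). DESeq2 called these 3 there. Of Gabra6, Gabre, Glra1, and Slc6a5, the striatum had too few counts to test, and of Gabre also the cortex.

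The comparison of 154Q-AXH with 154Q mice asks whether losing the binding to CIC changed the level of a member while the repeat stayed expanded. No member passed in any region, with edgeR, with DESeq2, or with a covariate for the number series, where 0.0335% of all genes were called in the cerebellum and 0.0184% in the hippocampus. The members with an unadjusted p under 0.05 numbered 8 in the cerebellum, 3 in the hippocampus, 2 in the cortex, 1 in the striatum, and 0 in the brainstem. Like the counts at an unadjusted p elsewhere, they were not set against the share of all genes. For Gabrd the difference of 154Q-AXH from 154Q was log2 fold change 0.40, adjusted p = 0.663 in the hippocampus (95% confidence interval 0.05 to 0.76), log2 fold change 0.39, adjusted p = 0.945 in the striatum (0.09 to 0.69), and log2 fold change 0.08, adjusted p = 0.891 in the cortex (-0.17 to 0.33). For Gad1 it was log2 fold change 0.07, adjusted p = 0.765 in the hippocampus and log2 fold change 0.10, adjusted p = 0.756 in the cortex. The hippocampal and striatal intervals of Gabrd lay above 0, but they are not adjusted for the number of genes tested. With 3 or 4 mice a group the intervals leave room for a partial difference, and the absence of a call does not show that the mutant genotypes were alike.

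Whether the 154Q difference varied between regions was tested directly, as a genotype by region term over the 39 WT and 154Q libraries. It passed for 3 of 27 members (5.56% of all genes were called): Gabrd (adjusted p = 0.000882, edgeR quasi-likelihood test), Gad1 (0.0140), and Gabra5 (0.0195). For Gabrd the regional values set the forebrain (-1.26, -1.26, and -1.15) against the cerebellum (-0.11) and the brainstem (0.38), for Gad1 they ran from -0.53 in the cortex to -0.06 in the cerebellum, and for Gabra5 from -0.71 in the hippocampus to 0.95 in the cerebellum. The call for Gad1 was lost without the libraries of mouse 154Q-69 (adjusted p = 0.099), and that for Gabra5 without those of mouse WT-220 (adjusted p = 0.0971), WT-221 (adjusted p = 0.0897), 154Q-71 (adjusted p = 0.163), or 154Q-75 (adjusted p = 0.0681). Gabbr1, Gabbr2, Nlgn2, and Glra2, called in the cerebellum, did not pass this test, so their differences are not shown to be particular to it.

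A further list of 35 genes of inhibitory transmission covered uptake, receptor trafficking and auxiliary subunits, the postsynapse, and the metabolism of glutamine and glycine. Of the 30 to 33 tested in a region, 3 were called in the cortex of 154Q mice (11.1% of all genes were called), 2 in the striatum (5.69%), 2 in the hippocampus (6.06%), 2 in the brainstem (0.538%), and 4 in the cerebellum (5.22%), and 0 in 154Q-AXH mice by edgeR, where 3 to 11 had an unadjusted p under 0.05 and DESeq2 called 4 in the cortex, 1 in the striatum, 1 in the hippocampus, 2 in the brainstem, and 3 in the cerebellum. With the 2 striatal libraries that stood apart left out, edgeR called 3 in the striatum of 154Q mice and 2 in that of 154Q-AXH mice, Insyn1 (-0.30, adjusted p = 0.0305) and Kctd16 (-0.50, adjusted p = 0.0416). The counts by DESeq2 and those without the 2 libraries were not set against the share of all genes. Beside the lowered GABA-B subunits, cerebellar Kctd12 was lowered (log2 fold change -0.56, adjusted p = 0.000155) and Kctd8 raised (log2 fold change 0.46, adjusted p = 0.000463), both of them auxiliary subunits that shape the kinetics of GABA-B signalling. Kctd12 was at 114 ± 6.87 CPM in WT and 77.7 ± 8.08 in 154Q mice, and Kctd8 at 28.7 ± 2.26 and 39.4 ± 1.88 (SD, n = 4), each without overlap. Cerebellar Gldc, of the glycine cleavage system, was also lowered (log2 fold change -0.30, adjusted p = 0.0114). Insyn1, which encodes a protein of the inhibitory postsynapse, was lowered in the hippocampus (log2 fold change -0.41, adjusted p = 0.00824), striatum (log2 fold change -0.56, adjusted p = 0.00977), and cortex (log2 fold change -0.30, adjusted p = 0.0070), the regions in which Gabrd was lowered. Glul, the glutamine synthetase of astrocytes, was lowered in the brainstem (log2 fold change -0.26, adjusted p = 0.0385), hippocampus (log2 fold change -0.38, adjusted p = 0.0174), striatum (log2 fold change -0.37, adjusted p = 0.0162), and cortex (log2 fold change -0.29, adjusted p = 0.00974). In the brainstem the astrocytic GABA transporter Slc6a11 was lowered as well (log2 fold change -0.33, adjusted p = 0.0268), and in the cortex Iqsec3, of the inhibitory postsynapse, was lowered (log2 fold change -0.25, adjusted p = 0.0251). Without the cortical library labelled WT-221 the calls of Insyn1 (-0.30, adjusted p = 0.0208) and Glul (-0.29, adjusted p = 0.0253) held and that of Iqsec3 was lost (-0.23, adjusted p = 0.0814). The brainstem calls were lost without any 1 of 7 libraries for Glul and of 5 for Slc6a11, the cortical call of Iqsec3 without any 1 of 3, the hippocampal call of Glul without mouse 154Q-69 or 154Q-71, and its striatal call without any 1 of the 4 154Q libraries. With a covariate for the number series the calls of Iqsec3, of Slc6a11, of striatal Insyn1, and of Glul in the brainstem, striatum, and cortex were lost. The summed level of 6 astrocyte markers was lower in 154Q than in WT libraries without overlap in the hippocampus (1262 to 1406 against 1512 to 1625 CPM), striatum (820 to 882 against 984 to 1084), and cortex (933 to 1067 against 1157 to 1281), and overlapped in the brainstem (1533 to 1706 against 1655 to 1907). In the cerebellum, where Glul was not called, it was also lower without overlap (2376 to 2525 against 2584 to 2912). Of the 6 astrocyte markers, 4 were called as lowered in the cortex of 154Q mice and 2 each in their hippocampus and brainstem. Only 1 was called in the striatum and 1 in the cerebellum. The part of the summed level in the Glul result was not tested.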

How the data were processed

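RNA was extracted by the submitters with a miRNeasy kit, and polyA libraries were sequenced as paired ends. The authors trimmed reads with Trimmomatic (0.36) and aligned them to GRCm38.p6 with STAR (2.7.2d). The deposited files hold STAR's counts of read pairs per gene, unnormalized, in 3 columns by strand. The column without regard to strand was used, since the first strand held 48.9% to 50.1% of stranded counts. The 4 summary lines of each file and a human transgene's line (53 counts at most) stayed out of library sizes and tests. Counted pairs were 75.3% to 81.2% of each file's total.

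Gene names, positions, and exon lengths came from GENCODE (GRCm38). Genes were tested per region over the 3 genotypes with edgeR (4.0.16, R 4.3.3): filterByExpr, TMM scaling, glmQLFit and glmQLFTest, and Benjamini-Hochberg adjustment over all genes tested, with a threshold of 0.05. CPM used TMM-scaled library sizes. Of the striatal markers, 1 is not reported here and was left out of their sum. SEs were taken from the log2 fold change and the F statistic. The region contrasts used 20 WT libraries and the genotype by region term 39. The steps were tested on simulated data. The mice of a genotype are separate animals, with 3 or 4 libraries a group. Alternatives were DESeq2 (1.42.0), edgeR with the size factors of DESeq2, all genes without a count filter, fits of just the 2 genotypes in question, a covariate for the mouse number series or for the Xist level, the 154Q-76 hippocampal library included, a pair of cortical libraries (154Q-76 and 154Q-AXH-207) exchanged or left out because each file is named for the other mouse, and each library left out in turn. Leaving out 2 striatal libraries was added after seeing the data.

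The libraries of a mouse come from the same animal, so its number pairs them across regions. The deviations from the group means of same-numbered libraries had correlations from -0.245 to 0.375 over 40 pairs (median -0.00139).

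The members and lists were chosen with earlier results of these data known. Every member was named. Members called in at least 1 genotype comparison were given in full for up to 3 comparisons and by value beyond that, members called nowhere by range, and at most 3 further pathway genes per comparison were named, those with the lowest adjusted p. GABA-A subunits in neither list were not analysed here.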

Additional observations from a re-analysis of the deposited data

Results flagged for a closer look

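The 154Q difference from WT varied between regions for 3 members (5.56% of all genes were called), by a test of the genotype by region term over 39 libraries (edgeR quasi-likelihood test): Gabrd (adjusted p = 0.000882), Gad1 (adjusted p = 0.0140), and Gabra5 (adjusted p = 0.0195). The call for Gad1 was lost without mouse 154Q-69, and that for Gabra5 without mouse WT-220, WT-221, 154Q-71, or 154Q-75. The hippocampal library of mouse 154Q-76, which entered no comparison, held 45.7 CPM of Glra1, where the other 11 hippocampal libraries had at most 0.277, and 269 CPM of Slc6a5, where they had at most 1.35. Dixon's test was run on groups of 4 libraries only for members in a region where a genotype comparison called them. Among the 41 groups tested, none had a value far from the others, where chance gives about 1 in 20. Groups of other members and regions were not tested.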

How the results depend on the processing

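Each of the 21 called fold changes kept its direction under every setting that gave it an adjusted p. Cortical Glra1 had none with DESeq2 or with only the 2 genotypes compared. The calls of Gad1 in the hippocampus and cortex, of Gabra5 in the hippocampus, of Gabrd in the forebrain of 154Q mice, of cortical Gabrd in 154Q-AXH mice, and of cerebellar Gabbr1 and Gabbr2 held under every setting run. With a covariate for the series of mouse numbers, the cerebellum of 154Q mice called 2 members in place of 4, their cortex 2 in place of 6, the cerebellum of 154Q-AXH mice 1 (Gabbr2) in place of 0, and their hippocampus 2 in place of 4, since Gabrd (adjusted p = 0.0512, edgeR) and Glra2 were lost. DESeq2 called 2 members in the brainstem (Slc6a9 and Glra2) and 2 in the striatum (Gabrd and Gabbr1) of 154Q mice. In their cortex it called 8, with Gabra2, Gabra5, and Gabrb1 gained and Glra1 lost, and in their cerebellum 5, with Gabra3 gained. These DESeq2 counts were not set against its share of all genes. Fitting only the 2 genotypes compared left 0 in the striatum of 154Q-AXH mice (Gabrd, adjusted p = 0.0603, edgeR). Without the striatal libraries of mouse WT-220 and mouse 154Q-AXH-217, 154Q mice called 4 there, with Gabbr1, Gabbr2, and Glrb gained. With the mixed hippocampal library included, the genotype by region term called 5, with Glra1 and Slc6a5 gained. In each case the cause was not tested. Without 1 library at a time, 154Q mice called from 4 to 7 members in the cortex, 1 in the striatum, 3 to 5 in the hippocampus, 0 to 1 in the brainstem, and 2 to 5 in the cerebellum, 154Q-AXH mice 2 to 4, 1, 3 to 4, 0, and 0 to 1, and the comparison of the mutant genotypes 0 throughout. Without 1 mouse at a time the genotype by region term called 2 to 3, and the WT region contrasts 3 to 7 in the cortex, 7 in the striatum, 11 in the hippocampus, 13 in the brainstem, and 10 to 11 in the cerebellum.

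With the mouse as a replicate block, the genotype by region term called 3 members, as without it, and the region contrasts called 5, 8, 11, 13, and 11 in the order above, with cortical Gabra6 gained. The block changed no other call of a member.

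The striatal and cortical libraries held fewer read pairs than the others, and Glra1, Gabra6, Gabre, and Slc6a5 were at or near 0 counts in some regions, so their values there rest on few reads or were not tested.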
